A study of Homo sapiens with 16 samples.

Results

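Interferon-stimulated genes are described here across RFX7 knockdown and p53 activation in U2OS cells, an established human osteosarcoma line. The 49 genes were a given list of symbols, and each symbol was looked up in the 4 tables that the study's authors made by comparing groups of poly(A) RNA-seq libraries. Of the 49 genes, 46 had a row in at least 1 table and 42 had a row in all 4, out of 23396 genes in any table and 19344 in all 4. IRF7, HERC5 and EPSTI1 were in none of the tables and have no expression values here. The promoters of HERC5 and EPSTI1 are still counted below. Transfection was with control siRNA (siControl) or with siRNA against RFX7 (siRFX7), a transcription factor with a winged-helix DNA-binding domain. Each was treated for 24 h with DMSO, the solvent, or with 10 µM Nutlin-3a, which keeps MDM2 off p53, so that p53 accumulates. Each of the 4 groups, siControl with DMSO, siRFX7 with DMSO, siControl with Nutlin-3a and siRFX7 with Nutlin-3a, had 4 libraries, 16 in all. Every group had gone through a transfection, and no group received interferon or a virus, as far as the labels say. The labels do not say whether libraries of 1 group came from separate cultures, so p-values measure the spread between these libraries, which may be technical. RFX7 was lowered and not deleted, and the labels name no second siRNA and no second cell line.

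Interferon-stimulated genes make up the antiviral state of a cell. Double-stranded RNA in the wrong place is detected by sensors such as IFIH1 (MDA5) and DDX58 (RIG-I), which leads to type I interferon. Interferon binds its receptors, the kinases JAK1 and TYK2 phosphorylate STAT proteins, and STAT2 joins IRF9 in the complex ISGF3, which binds the interferon-stimulated response element (ISRE) in promoters. Many of the genes also have a basal level without interferon, kept up by the same STAT and IRF proteins, and some are known as direct p53 targets. The products block viral translation, cut or edit viral RNA, attach the ubiquitin-like protein ISG15 to other proteins, or amplify the sensing itself.

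The tables give no value of a single library, so spread is given as the authors' standard error (SE) of a log2 fold change over 8 libraries. A level was derived for each group from a table's base mean (the mean normalised count) and its fold change, scaled to add up to 1000000 over the 19344 shared genes, and averaged over the 2 tables that hold the group. Levels are given in these units, normalised counts per 1000000, or NPM. Both tables' levels of the members differed by a median of 0.524% to 3.62%, depending on the group, and no level has an SD. The sum of base means, a measure of depth, ranged from 27946376 to 35311111 over the tables. Gene positions below are from GENCODE 29 on GRCh38. RFX7 had derived levels of 62.3 and 75.1 NPM in siControl and 11.4 and 14.3 in siRFX7, under DMSO and Nutlin-3a in turn. Its log2 fold change with siRFX7 was -2.42 ± 0.07 (SE) under DMSO and -2.37 ± 0.07 under Nutlin-3a, from the authors' deposited tables. CDKN1A, the p53 target that encodes p21, rose with Nutlin-3a by 3.24 ± 0.04 in siControl and 2.98 ± 0.04 in siRFX7, per the authors' deposited tables. Of 9 osteoblast lineage markers 7 had a row, COL1A1 and SPARC being the most abundant, and SP7 and IBSP had none. Their summed derived level was 1940 NPM in siControl and 2350 in siRFX7 under DMSO, and 2120 and 2430 under Nutlin-3a. COL1A1 and SPARC made up most of it, while COL1A2 was at most 0.45 NPM and BGLAP at most 0.17 NPM in any group. Of 8 leukocyte markers 5 had a row, with a summed derived level of 38.7 NPM in siControl and 39.0 in siRFX7 under DMSO and 30.6 and 30.0 under Nutlin-3a. Most of that sum was NCAM1, while PTPRC, CD14 and CD68 were each at most 0.178 NPM and CD3E and LYZ had no row.

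RFX7 knockdown was accompanied by lower levels of many interferon-stimulated genes, with and without Nutlin-3a. A gene was called when the authors' adjusted p (DESeq2, Benjamini-Hochberg over all genes of the table) was under 0.05. Under DMSO, 19 of 42 genes were lower with siRFX7 and 0 were higher in the authors' deposited table, against a background of 17.5% lower and 19.9% higher among all 19511 genes. At an unadjusted p under 0.05, 2 were higher and 22 lower, and when genes with low counts (base mean under 100) were left out before the adjustment, 2 passed as higher and 18 as lower. Under Nutlin-3a, 21 of 43 genes were lower and 2 were higher, against 15.4% lower and 17.2% higher among all 20335 genes of the authors' deposited table. The median log2 fold change of the genes was -0.18 under DMSO and -0.19 under Nutlin-3a, from the authors' deposited tables, beside -0.0024 and -0.0053 over all genes. Where the base mean was 100 or more, 51.6% of 31 were called lower under DMSO against 22.6% of all such genes, and 65.5% of 29 under Nutlin-3a against 20.6%, from the authors' deposited adjusted p. Over the same comparisons 3 of 6 osteoblast lineage markers were called higher under DMSO, COL1A1 by 0.38 ± 0.04, ALPL by 0.28 ± 0.08 and SPARC by 0.22 ± 0.03, from the authors' deposited table. COL1A1 and SPARC were called higher with Nutlin-3a too, 2 of 6 markers. In either of the authors' deposited tables (DESeq2) 0 were lower, with 1 lower in each at an unadjusted p under 0.05. That marker was RUNX2, at -0.22 ± 0.10 (adjusted p 0.059) under DMSO and -0.21 ± 0.09 (adjusted p 0.0643) under Nutlin-3a. By the mean over both treatments, explained below, 3 of 6 markers were higher and 1 was lower, against 24.8% and 23.7% of all genes. The part of these marker changes in the fall of the interferon-stimulated genes was not tested. In bulk RNA, fewer cells that express a gene and less of its RNA per cell cannot be told apart.

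The knockdown comparisons under DMSO and under Nutlin-3a share no library, and 16 of 42 genes were lower in both, against 11.9% of the 19346 genes in both tables. These were IFIT1, IFIT2, IFIT3, ISG15, ISG20, OASL, IFI6, IFI44, IFIH1, DDX60, STAT2, HERC6, PARP9, PARP14, TRIM22 and EIF2AK2. OAS1, IFI16 and TRIM21 were lower under DMSO and not called under Nutlin-3a. OAS3, IRF1, TRIM25, UBE2L6 and PLSCR1 were lower under Nutlin-3a and not called under DMSO. SAMD9L and SP110 were called higher, both under Nutlin-3a. A further 16 of the 42 genes were called under neither treatment, among them DDX58, ADAR, GBP1, SAMD9 and MX1. A call under 1 treatment and not under the other is no test of a difference, which is given further on.

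**Figure D1:**
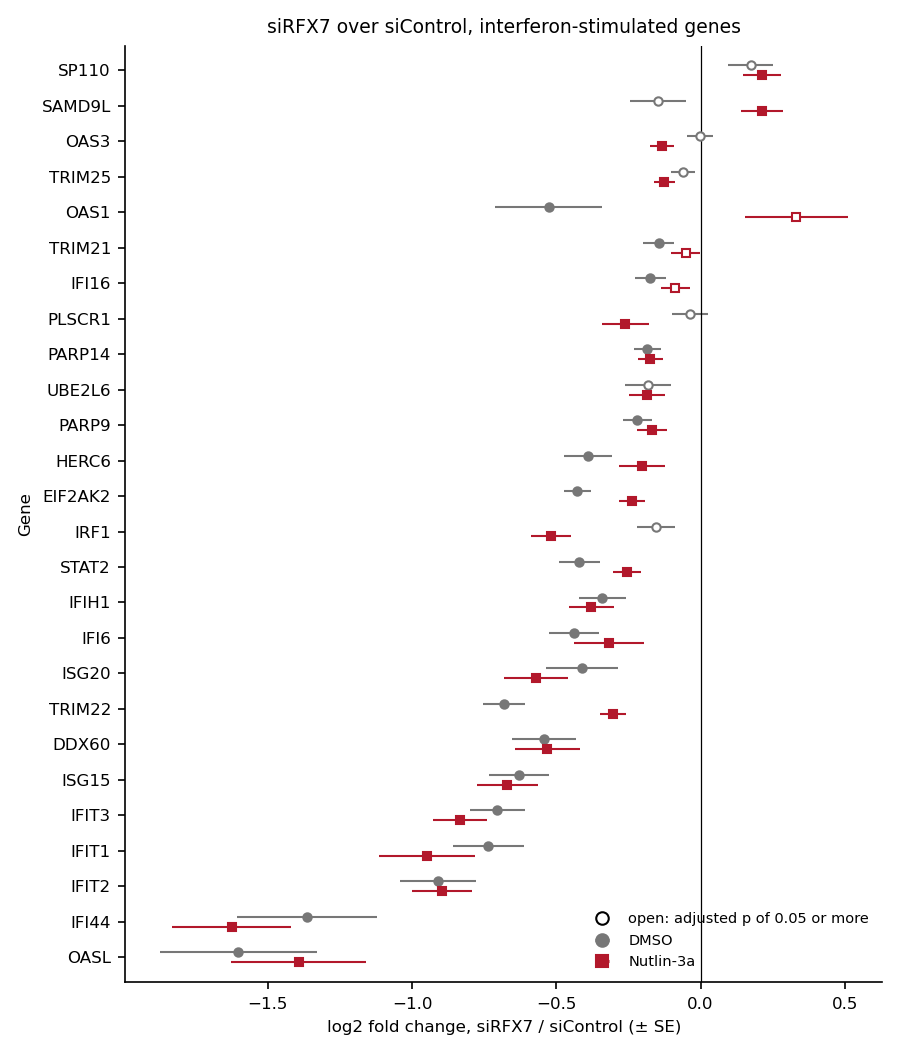
Log2 fold change of siRFX7 over siControl (x axis, with SE bars) of each gene called under at least 1 treatment (y axis), under DMSO (grey circles) and Nutlin-3a (red squares), from the authors' deposited tables. Open symbols have an adjusted p of 0.05 or more. OASL and IFI44 lie lowest, between -1.36 and -1.63, and SP110 and SAMD9L are the genes with a filled symbol above 0.

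The letters of the ISRE, the sequence that ISGF3 binds, were looked for in the genes' promoters. Of the 49 genes, 39 matched a RefSeq promoter (GRCh38.p14, from 250 bases before to 50 after the annotated start). The 10 without a match were IFIT2, OAS2, OASL, MX2, DDX58, DHX58, IRF7, USP18, TRIM22 and GBP2. No motif count below covers them. The ISRE was searched as GAAA, any 2 bases, GAAA on both strands. It was in 23 of 39 promoters (59.0%), against 3.57% of 35116 promoters of the same length. HERC5 and EPSTI1, which have no expression values, are among the 39 and the 23. The following windows show it in genes lower with siRFX7 under both treatments, each on the gene's own strand, with ISRE matches in capitals (on the minus strand a match reads TTTC, any 2 bases, TTTC).
IFIT1, chr10:89392492-89392544, plus strand: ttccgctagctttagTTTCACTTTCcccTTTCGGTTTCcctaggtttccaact
IFIT3, chr10:89327826-89327899, plus strand: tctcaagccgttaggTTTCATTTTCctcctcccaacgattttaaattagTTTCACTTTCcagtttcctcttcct
ISG15, chr1:1013369-1013414, plus strand: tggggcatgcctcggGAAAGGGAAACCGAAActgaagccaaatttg
ISG20, chr15:88638932-88638971, plus strand: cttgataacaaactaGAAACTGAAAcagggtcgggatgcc
IFI44, chr1:78649756-78649788, plus strand: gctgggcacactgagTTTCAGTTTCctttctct
DDX60, chr4:168318781-168318855, minus strand: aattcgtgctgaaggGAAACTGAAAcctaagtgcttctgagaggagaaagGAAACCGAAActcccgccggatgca
IFI6, chr1:27672261-27672363, minus strand: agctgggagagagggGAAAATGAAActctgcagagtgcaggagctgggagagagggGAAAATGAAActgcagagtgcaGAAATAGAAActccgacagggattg
In IFIT1 the first match began 116 bases before the annotated start and in IFI44 18 bases before it. In ISG15 the 2 matches overlap and share a GAAA. IFI6 holds 3 matches, and the first 2 have the same letters.

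The same letters stand in promoters of genes that were not called with siRFX7, and these windows are shown for that reason.
GBP1, chr1:89065311-89065350, minus strand: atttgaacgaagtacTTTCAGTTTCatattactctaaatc
SAMD9, chr7:93118091-93118130, minus strand: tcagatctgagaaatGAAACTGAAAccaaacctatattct
IFI27, chr14:94110613-94110665, plus strand: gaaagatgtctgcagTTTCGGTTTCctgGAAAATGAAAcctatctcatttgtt
The core of the SAMD9 match, GAAACTGAAA, has the same letters as that of ISG20 and the first of DDX60. To give each gene 1 value, the siRFX7 effects under both treatments were averaged, and their SEs combined, giving a two-sided normal p adjusted by Benjamini-Hochberg over the 19346 genes in both tables. By this mean effect 25 of 42 genes were lower and 1 was higher, against 23.7% lower and 24.8% higher among all genes, with a median of -0.18 beside -0.005 over all genes. Of the genes with an ISRE 13 of 20 were lower and 0 higher, with a median of -0.26. Of the matched genes without one 8 of 13 were lower and 1 was higher, with a median of -0.18. The difference between these sets was not tested. The gamma-activated site, TTCNNNGAA on both strands, was in 10 of 39 promoters (25.6%) against 7.66% of all. The half-site GTTGCCA, a core of the sequence that RFX proteins bind, was in 0 of 39 on either strand, against 4.08% of all, which says only that these letters are not in these windows.

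**Figure D2:**
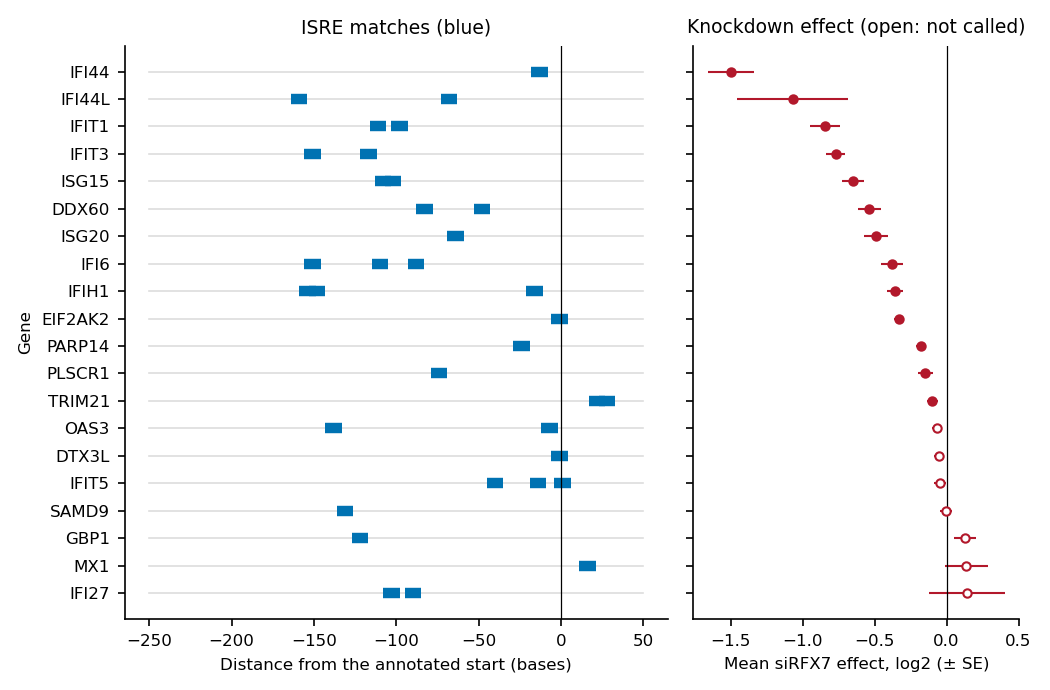
Left, ISRE matches (blue bars, overlapping ones merged) by their distance in bases from the annotated start (black line) for the 20 genes with a match and a mean siRFX7 effect; right, that effect (log2, with SE bars), open where not called. From IFI44 down to TRIM21, 13 genes have filled points below 0, and the 7 open points below them belong to genes with matches at like distances.

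More of the genes rose than fell with Nutlin-3a, in siControl and in siRFX7. In siControl, 20 of 46 genes were higher with Nutlin-3a and 6 were lower in the authors' deposited table, against 18.3% higher and 19.6% lower among all 23353 genes. In siRFX7, 20 of 44 were higher and 7 lower in the authors' deposited table, against 18.7% higher and 20.3% lower among 21382 genes. Their median log2 fold change was 0.17 in siControl and 0.23 in siRFX7, beside 0.0101 and 0.009 over all genes of the authors' deposited tables. These tables share no library either, and 17 of 44 genes were higher in both, against 14.8% of the 21339 genes in both tables: IFIT2, IFIT3, ISG20, OASL, IFI16, IFIH1, DDX58, STAT2, HERC6, SAMD9, SAMD9L, PARP9, PARP14, TRIM22, TRIM21, UBE2L6 and SP110. IFIT1, OAS3, PLSCR1, EIF2AK2 and GBP1, 5 of 44, were lower in both, against 17.0% of all. Averaged over both siRNAs in the same way as above, the Nutlin-3a response was higher in 25 of 44 genes and lower in 9, against 25.2% higher and 26.2% lower among 21339 genes, with a median of 0.22 beside 0.0078. The knockdown and Nutlin-3a comparisons are made from the same libraries (a knockdown table and a Nutlin-3a table always share a group), so their values are set side by side for single genes and not counted together.

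**Figure D3:**
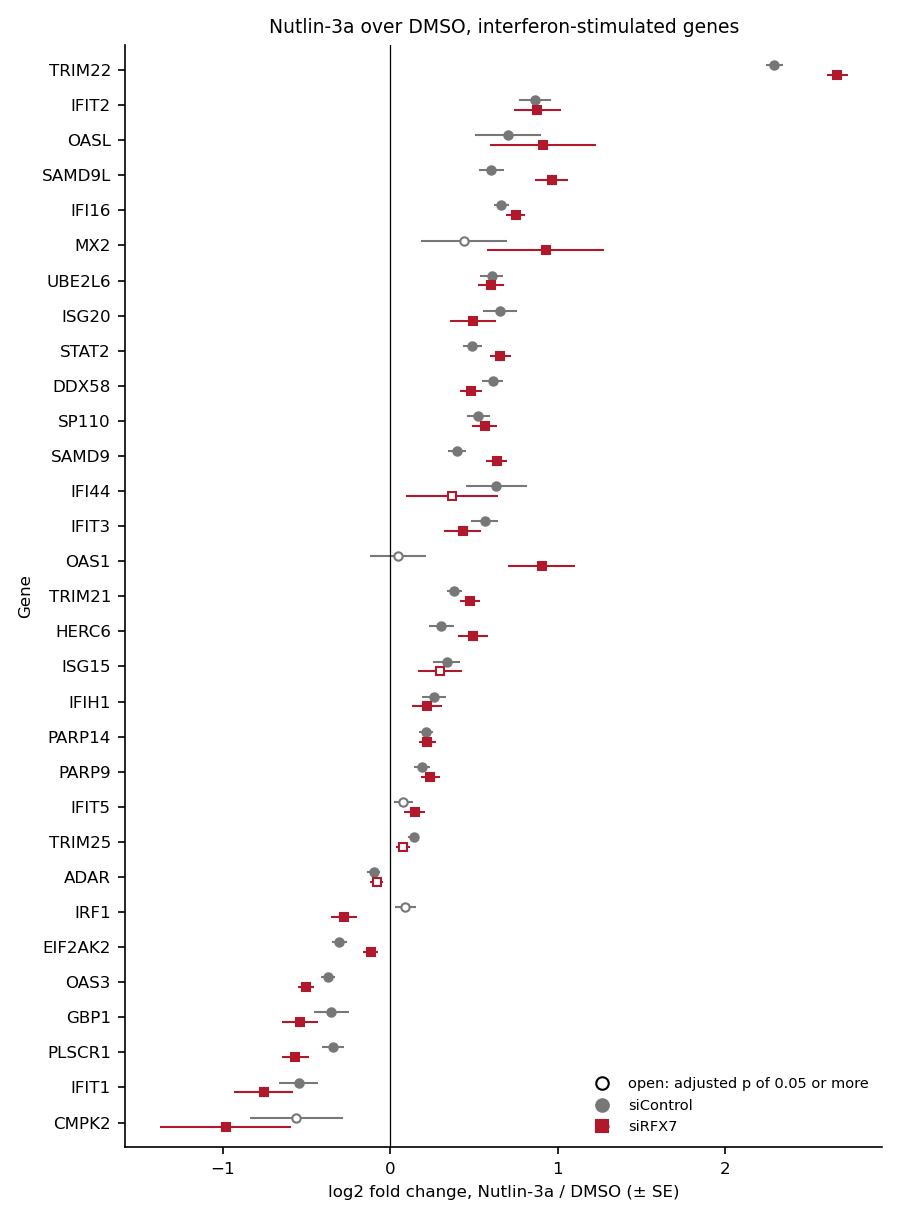
Log2 fold change of Nutlin-3a over DMSO (x axis, with SE bars) of each gene called in at least 1 siRNA (y axis), in siControl (grey circles) and siRFX7 (red squares), from the authors' deposited tables. Open symbols have an adjusted p of 0.05 or more. TRIM22 lies apart from the others at 2.29 and 2.67, and CMPK2 and IFIT1 lie lowest.

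The group of sensors of foreign or misplaced nucleic acid held 7 genes, counting ADAR, an RNA-editing enzyme and not itself a sensor. Of these, 4 were lower with siRFX7 under DMSO (17.5% of all genes) and 3 under Nutlin-3a (15.4% of all). With Nutlin-3a 3 of the 7 were higher in each siRNA (18.3% and 18.7% of all genes), and 2 were lower in siControl and 1 in siRFX7 (19.6% and 20.3% of all). IFIH1 (ENSG00000115267; chromosome 2, 162267079 to 162318703, minus strand), which binds long double-stranded RNA, had derived levels of 12.8 NPM in siControl and 9.86 in siRFX7 under DMSO, and 15.5 and 11.6 under Nutlin-3a. Both siRFX7 groups were below both siControl groups. Its siRFX7 effect was -0.34 ± 0.08 (adjusted p 0.000239) under DMSO and -0.38 ± 0.08 (adjusted p 1.02e-05) under Nutlin-3a, from the authors' deposited tables (DESeq2). DDX60, a helicase reported to work with RIG-I, had levels of 7.02, 4.72, 7.49 and 5.08 in the same order of groups. Its siRFX7 effects of -0.54 ± 0.11 and -0.53 ± 0.11 in the authors' deposited tables were as large with Nutlin-3a as without, while its Nutlin-3a response was 0.08 in each siRNA and not called. EIF2AK2 (PKR), the kinase that stops translation on double-stranded RNA, was lower in both kinds of comparison, with levels of 174.9, 127.4, 143.6 and 119.3. Its siRFX7 effect was -0.43 ± 0.05 under DMSO and -0.24 ± 0.04 under Nutlin-3a, and its Nutlin-3a response -0.30 ± 0.05 in siControl and -0.12 ± 0.05 in siRFX7, per the authors' deposited tables. The last of these was not called when changes were centred on the median of all genes (-0.09, adjusted p 0.104, normal test of the centred change).

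IFI16, which binds DNA in the nucleus and cytoplasm, mainly followed Nutlin-3a. Its levels were 43.6, 37.9, 69.96 and 64.6 NPM, so that both Nutlin-3a groups were above both DMSO groups. Its Nutlin-3a response was 0.66 ± 0.04 in siControl and 0.75 ± 0.06 in siRFX7, and its siRFX7 effect -0.17 ± 0.05 (adjusted p 0.00393) under DMSO, in the authors' deposited tables (DESeq2). DDX58 (RIG-I), which recognises the ends of viral RNA, was higher with Nutlin-3a by 0.61 ± 0.06 and 0.48 ± 0.07 in the authors' deposited tables. Unlike IFIH1, it was not called with siRFX7, at 0.07 ± 0.07 and -0.06 ± 0.06 in the authors' deposited tables. ADAR, which edits adenosine in double-stranded RNA and so keeps the sensors from the cell's own RNA, had the highest level of the genes per kilobase of exon, 37.5 NPM per kilobase in siControl with DMSO. It was 363, 343, 344 and 328 NPM over the 4 groups, and its 1 call was lower with Nutlin-3a in siControl, -0.10 ± 0.04, in the authors' deposited table. That call was also lost with centred changes (-0.07, adjusted p 0.119). DHX58 (LGP2) had base means of about 12 and was called nowhere.

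The transcription factors that relay the interferon signal differed from each other. STAT2 (ENSG00000170581; chromosome 12, 56341597 to 56360155, minus strand), the ISGF3 subunit that carries the activation domain, had levels of 42.1, 30.8, 59.9 and 49.3 NPM. Each siRFX7 group was below its siControl group and each Nutlin-3a group above its DMSO group. Its siRFX7 effect was -0.42 ± 0.07 under DMSO and -0.25 ± 0.05 under Nutlin-3a, and its Nutlin-3a response 0.49 ± 0.06 and 0.66 ± 0.06, in the authors' deposited tables. IRF1, which binds the ISRE by itself, had levels of 21.8, 19.2, 23.5 and 16.1, the lowest being siRFX7 with Nutlin-3a. Under Nutlin-3a its siRFX7 effect was -0.52 ± 0.07 (adjusted p 2.43e-12), and under DMSO -0.15 ± 0.07 (adjusted p 0.0568), in the authors' deposited tables (DESeq2). IRF9, the DNA-binding subunit of ISGF3, had a level of 0.936 NPM in siControl with DMSO, and its siRFX7 effects were -0.17 ± 0.30 and -0.20 ± 0.28 in the authors' deposited tables, too imprecise to show a change of the size seen in STAT2. Its exons overlap those of AL136295.5 on the same strand in GENCODE 29, and IRF1's overlap C5orf56 on the other strand. The strand setting of the counting was not given in the sources used here.

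The genes around ISG15 conjugation and the ubiquitin and ADP-ribose ligases had calls in 1 direction in each comparison. With siRFX7 6 of 10 were lower under DMSO and 7 of 10 under Nutlin-3a, beside 17.5% and 15.4% of all genes. With Nutlin-3a 8 of 10 were higher in siControl and 6 of 10 in siRFX7, beside 18.3% and 18.7% of all. The opposite direction had 0 calls in each of the authors' deposited tables (DESeq2), and also 0 at an unadjusted p under 0.05. ISG15 (ENSG00000187608; chromosome 1, 1001138 to 1014540, plus strand), the ubiquitin-like modifier whose promoter is printed above, had levels of 9.96, 6.27, 12.8 and 7.82 NPM. Both siRFX7 groups were below both siControl groups. The siRFX7 effect was -0.63 ± 0.10 (adjusted p 1.34e-08) under DMSO and -0.67 ± 0.11 (adjusted p 4.41e-09) under Nutlin-3a, from the authors' deposited tables (DESeq2), which left 64.6% and 62.8% of the control level. UBE2L6, the E2 enzyme that carries ISG15, had levels of 21.6, 18.6, 33.3 and 28.7, and was higher with Nutlin-3a by 0.60 ± 0.07 and 0.60 ± 0.08 in the authors' deposited tables. USP18, the protease that removes ISG15 and damps the interferon receptor, was called in none of the 4 tables, with siRFX7 effects of -0.07 ± 0.15 and -0.16 ± 0.16 in the authors' deposited tables.

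TRIM22 (chromosome 11, 5689689 to 5737089, plus strand), a ligase of the TRIM family that restricts several viruses and is a known p53 target, had the largest Nutlin-3a response of the list. Its levels were 19.1 and 11.7 NPM under DMSO and 94.9 and 75.2 under Nutlin-3a, siControl first. Nutlin-3a over DMSO was 2.29 ± 0.05 in siControl and 2.67 ± 0.06 in siRFX7, from the authors' deposited tables, or 490% and 636% of the DMSO level. With siRFX7 it fell by 0.68 ± 0.07 (DMSO) and 0.30 ± 0.05 (Nutlin-3a), from the authors' deposited tables. Its exons overlap OR56B1 on the same strand, so that its count depends on how shared reads were treated. TRIM21, the antibody receptor of the cytosol, rose with Nutlin-3a by 0.38 ± 0.05 and 0.48 ± 0.06, and TRIM25, the ligase that activates RIG-I, by 0.14 ± 0.03 in siControl, per the authors' deposited tables. HERC6, a HECT-type ligase, fell with siRFX7 by 0.39 ± 0.08 and 0.20 ± 0.08, and the ADP-ribosyltransferases PARP9 by 0.22 ± 0.05 and 0.17 ± 0.05, and PARP14 by 0.18 ± 0.05 and 0.17 ± 0.04 (DMSO first), per the authors' deposited tables. Each of these 3 rose with Nutlin-3a in both siRNAs, PARP14 by 0.21 and 0.22 and PARP9 by 0.19 and 0.24 in the authors' deposited tables. DTX3L, the ligase that pairs with PARP9, was called in none of the 4 tables, and its level lay between 109.7 and 117.0 NPM. PARP9 and DTX3L overlap on opposite strands.

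Of the 19 antiviral effectors 17 were tested with siRFX7, and their effects ran from -1.60 to 0.22 under DMSO and from -1.39 to 0.33 under Nutlin-3a, per the authors' deposited tables. Lower calls were 6 and 7 of 17, beside 17.5% and 15.4% of all genes. OASL had the lowest value of these 17 under each treatment. OASL (ENSG00000135114; chromosome 12, 121019111 to 121039242, minus strand), an oligoadenylate synthetase relative that has lost the synthetase activity and enhances RIG-I signalling, had levels of 1.81 and 0.579 NPM under DMSO and 2.99 and 1.11 under Nutlin-3a. The siRFX7 group with Nutlin-3a stayed below the siControl group with DMSO. siRFX7 over siControl was -1.60 ± 0.27 (adjusted p 4e-08) and -1.39 ± 0.23 (adjusted p 3.77e-08) in the authors' deposited tables (DESeq2), or 32.9% and 38.1% of the control level. It rose with Nutlin-3a by 0.70 ± 0.20 in siControl and 0.91 ± 0.32 in siRFX7, per the authors' deposited tables. Its base mean lay between 23.2 and 85.4 over the tables, with larger SEs than those of STAT2 or ISG15.

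The IFIT genes, neighbours on chromosome 10 whose products bind viral RNA without a host cap, split by treatment and by member. IFIT2 (chromosome 10, 89283694 to 89309276, plus strand) had levels of 6.14, 3.19, 11.4 and 5.96 NPM. Its level in siRFX7 with Nutlin-3a was about that of siControl with DMSO. siRFX7 over siControl was -0.91 ± 0.13 (adjusted p 6.78e-11) and -0.90 ± 0.10 (adjusted p 2.84e-16), and its Nutlin-3a response 0.87 ± 0.10 and 0.88 ± 0.14, in the authors' deposited tables (DESeq2). IFIT3 had the same pattern at levels of 10.3, 6.16, 15.4 and 8.44, with siRFX7 effects of -0.70 ± 0.10 and -0.84 ± 0.09 in the authors' deposited tables. IFIT1 (chromosome 10, 89392546 to 89406486, plus strand) fell by 0.74 ± 0.12 and 0.95 ± 0.17 with siRFX7 as well, per the authors' deposited tables. Its Nutlin-3a response was of the opposite sign to that of IFIT2 and IFIT3, at -0.55 ± 0.12 in siControl and -0.76 ± 0.18 in siRFX7, from the authors' deposited tables. Its levels were 6.58, 3.87, 4.59 and 2.33, the lowest in siRFX7 with Nutlin-3a. IFIT5, which also binds cellular RNA, was not called with siRFX7, at -0.08 ± 0.06 and -0.01 ± 0.06 per the authors' deposited tables, with 3 ISRE matches in its promoter. Its 1 call was higher with Nutlin-3a in siRFX7, by 0.14 ± 0.06 in the authors' deposited table. IFIT2's exons overlap AL353751.1 on the same strand and LIPA on the other.

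**Figure D4:**
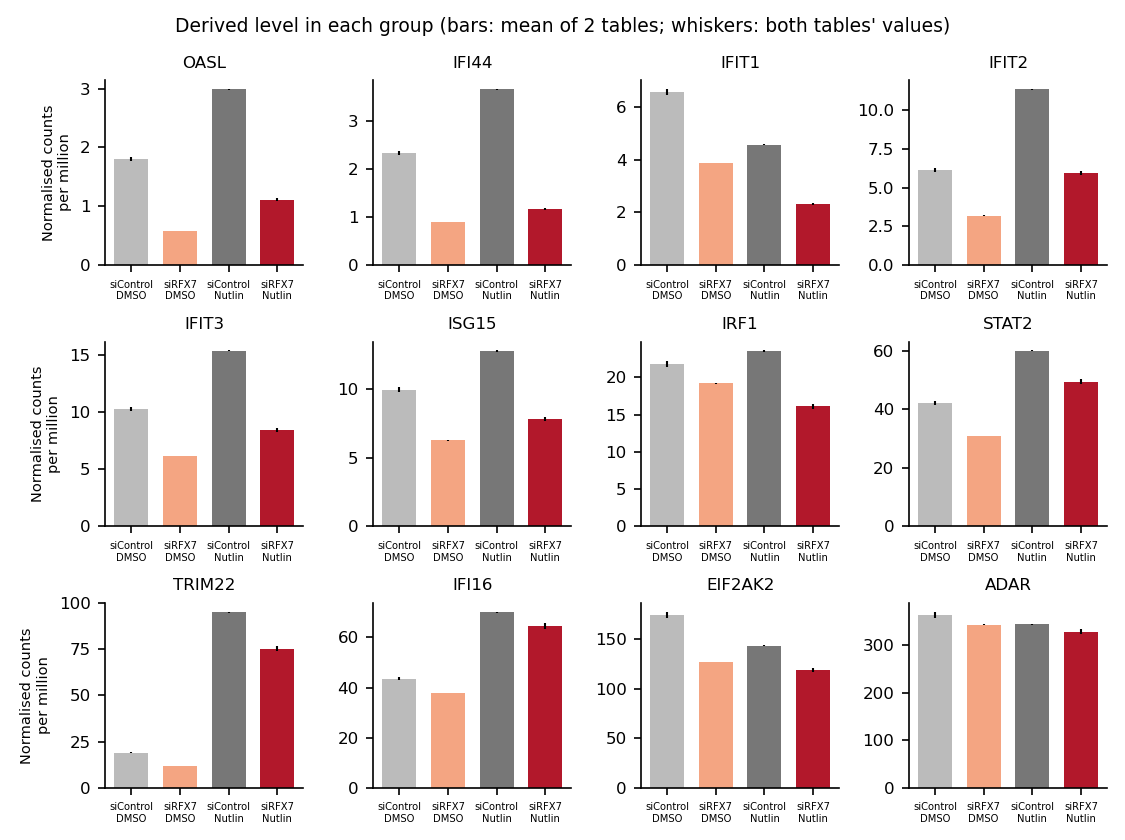
Derived level (bars, in NPM, mean of the 2 tables that hold a group; whiskers, both tables' values) of 12 of the genes in siControl and siRFX7 with DMSO and siControl and siRFX7 with Nutlin-3a (labelled Nutlin). OASL, IFI44, IFIT2, IFIT3 and ISG15 are lower in each siRFX7 group and higher with Nutlin-3a, IFIT1 and EIF2AK2 are lower with both, TRIM22 rises to 94.9 and 75.2, and ADAR differs little.

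The other effectors did not share 1 pattern. ISG20, an exonuclease that degrades viral RNA, had levels of 5.55, 4.08, 8.87 and 5.84 NPM, with siRFX7 effects of -0.41 ± 0.12 and -0.57 ± 0.11 and Nutlin-3a responses of 0.66 ± 0.10 and 0.49 ± 0.14 in the authors' deposited tables. OAS1 and OAS3, which make the second messenger that activates RNase L, differed. OAS1 had levels of 2.41, 1.64, 2.53 and 3.12, so that siRFX7 lay below siControl under DMSO and above it under Nutlin-3a. The siRFX7 effects were -0.53 ± 0.19 (adjusted p 0.0154) and 0.33 ± 0.18 (adjusted p 0.15) in the authors' deposited tables (DESeq2). OAS3 had a higher level, 94.7, 92.7, 74.2 and 66.3, and fell with Nutlin-3a by 0.37 ± 0.04 in siControl and 0.51 ± 0.05 in siRFX7, per the authors' deposited tables. SAMD9 and SAMD9L, paralogues that restrict poxviruses, rose with Nutlin-3a, SAMD9 by 0.40 ± 0.05 and 0.63 ± 0.06 and SAMD9L by 0.60 ± 0.07 and 0.96 ± 0.10 in the authors' deposited tables. SAMD9L was also higher with siRFX7 under Nutlin-3a, 0.21 ± 0.07 (adjusted p 0.0139), and was -0.15 ± 0.10 under DMSO, in the authors' deposited tables (DESeq2).

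PLSCR1, a scramblase of membrane lipids, and GBP1, a guanylate-binding protein driven mainly by interferon gamma, were lower with Nutlin-3a in both siRNAs, PLSCR1 at -0.34 ± 0.06 and -0.57 ± 0.08 and GBP1 at -0.35 ± 0.11 and -0.54 ± 0.11 in the authors' deposited tables. Of the 2, PLSCR1 was lower with siRFX7 under Nutlin-3a (-0.26 ± 0.08), and GBP1 was 0.22 ± 0.10 and 0.04 ± 0.11 with siRFX7 and not called in the authors' deposited tables. CMPK2, a mitochondrial kinase whose exons overlap RSAD2 on the other strand, fell with Nutlin-3a in siRFX7 by 0.98 ± 0.39, at a base mean of 14.5, in the authors' deposited table. MX2, which restricts HIV at the nuclear pore, rose with Nutlin-3a in siRFX7 by 0.93 ± 0.35, at a base mean of 19.5, in the authors' deposited table. By the mean over both treatments, CMPK2 was lower with siRFX7, at -0.70 ± 0.24, and MX2 at -0.53 ± 0.21, which neither table called alone.

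Of the other induced proteins IFI44 (chromosome 1, 78649796 to 78664078, plus strand), of which the molecular role is not well known, had siRFX7 effects of the size of OASL's. Its levels were 2.33 and 0.885 NPM under DMSO and 3.65 and 1.16 under Nutlin-3a. The siRFX7 effect was -1.36 ± 0.24 (adjusted p 1.81e-07) under DMSO and -1.63 ± 0.21 (adjusted p 1.03e-13) under Nutlin-3a, from the authors' deposited tables (DESeq2). It rose with Nutlin-3a in siControl by 0.63 ± 0.18 and was 0.37 ± 0.28 in siRFX7, not called, per the authors' deposited tables. Its neighbour and paralogue IFI44L had a base mean of at most 14.9 and no call in any table. Its mean siRFX7 effect was -1.07 ± 0.38 (adjusted p 0.0129 over all genes, normal test of the combined tables). IFI6, an inhibitor of cell death at mitochondria, had levels of 13.0, 9.40, 14.7 and 11.5 and siRFX7 effects of -0.44 ± 0.09 and -0.32 ± 0.12 in the authors' deposited tables. SP110, a nuclear body protein of the SP100 family, was called higher with siRFX7 under Nutlin-3a, at levels of 12.6, 13.98, 18.4 and 20.95. siRFX7 over siControl was 0.17 ± 0.08 (adjusted p 0.0642) and 0.21 ± 0.07 (adjusted p 0.00536), and it rose with Nutlin-3a by 0.52 ± 0.07 and 0.56 ± 0.08, in the authors' deposited tables (DESeq2).

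**Figure D5:**
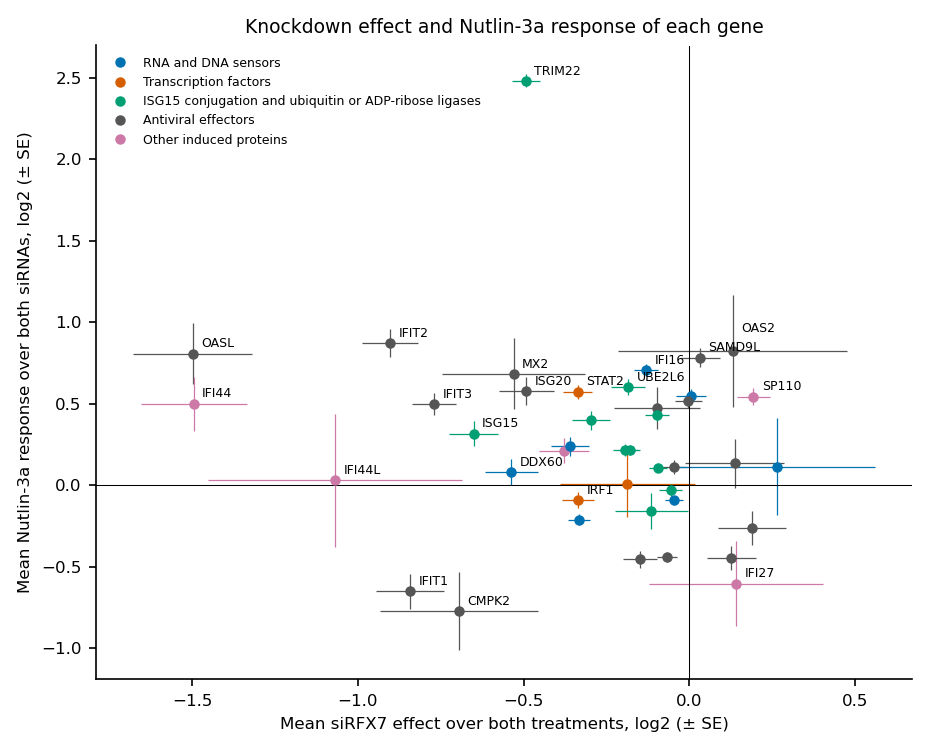
Mean Nutlin-3a response over both siRNAs (y axis, log2) against the mean siRFX7 effect over both treatments (x axis, log2) of each of the 42 genes in all 4 tables, with SE bars and coloured by role. Both axes are computed from the same 16 libraries. TRIM22 lies at -0.49 and 2.48, OASL and IFI44 at the far left at -1.50, and IFIT1 and CMPK2 below 0 on both axes.

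The question whether RFX7 knockdown changed the response of these genes to Nutlin-3a was tested directly, as the response in siRFX7 minus that in siControl, over 21339 genes. TRIM22 and IRF1 passed, 1 of 44 higher and 1 of 44 lower, against 0.173% and 0.764% of all genes. TRIM22 rose more with siRFX7, by 0.38 ± 0.08 (adjusted p 0.000949, normal test of the difference), from the lower starting level given above. IRF1 differed by -0.37 ± 0.10 (adjusted p 0.0269), a call lost when all statistics were divided by their robust SD (adjusted p 0.0771). Its response was 0.09 ± 0.06 in siControl and -0.28 ± 0.08 in siRFX7, from the authors' deposited tables. The difference for OAS1 was larger and less precise, 0.86 ± 0.26 (adjusted p 0.0848), and did not pass. At an unadjusted p under 0.05 there were 8 of 44 genes (18.2%), 5 with a higher and 3 with a lower response, against 6.32% of all genes. Besides TRIM22, IRF1 and OAS1 these were SAMD9L (0.36 ± 0.12), SAMD9 (0.24 ± 0.08), EIF2AK2 (0.19 ± 0.07), PLSCR1 (-0.22 ± 0.10) and OAS3 (-0.13 ± 0.06), none of which passed the adjustment. For the genes lowest with siRFX7 the 95% interval of the difference was wide, from -0.53 to 0.94 for OASL and from -0.91 to 0.39 for IFI44, and narrower for IFIT2, from -0.32 to 0.35.

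The pathway above these genes was read from a list of 38 interferon ligand, receptor, kinase, adaptor and inhibitor symbols. None of the 9 ligands, among them IFNB1 and IFNL1, had a row in any table. JAK1, the kinase shared by the interferon receptors, had levels of 187.8, 103.5, 198.3 and 112.7 NPM over the 4 groups in the order above. With siRFX7 it fell by 0.83 ± 0.04 (DMSO) and 0.78 ± 0.03 (Nutlin-3a), and STAT3 fell by 0.57 ± 0.04 and 0.69 ± 0.04, per the authors' deposited tables. Chosen after their values were seen, the kinase TYK2 was at -0.17 and -0.31 and the kinase JAK2 at -0.33 and -0.10, all called but the last, per the authors' deposited tables. Over the whole list 15 of 26 genes with a row were lower and 4 higher with siRFX7 and DMSO, and 11 lower and 4 higher with siRFX7 and Nutlin-3a, per the authors' deposited tables. That is 57.7% and 42.3% lower, beside 17.5% and 15.4% of all genes, and 15.4% higher in each, beside 19.9% and 17.2% of all. The highest under DMSO were TICAM1, the adaptor of TLR3 (0.51 ± 0.06), and IFNGR2, a chain of the interferon gamma receptor (0.49 ± 0.05), in the authors' deposited table. TLR3, a sensor of double-stranded RNA in endosomes and a known p53 target, rose with Nutlin-3a by 1.52 ± 0.08 and 1.45 ± 0.10 and had siRFX7 effects of 0.06 ± 0.11 and -0.01 ± 0.07, per the authors' deposited tables. Of 5 inhibitors with a row, 3 were lower and 1 was higher with siRFX7 in each of the authors' deposited tables. SOCS3 was lower, at -0.36 ± 0.08 and -0.58 ± 0.09, and PIAS1, an inhibitor of STAT proteins, was higher, at 0.36 ± 0.04 and 0.22 ± 0.05, per the authors' deposited tables.

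A second list held 35 further interferon-stimulated genes. Of 28 with a row, siRFX7 had 13 lower and 4 higher with DMSO, and 11 lower and 6 higher with Nutlin-3a, from the authors' deposited tables. The lower genes were 46.4% and 39.3%, beside 17.5% and 15.4% of all, and the higher ones 14.3% and 21.4%, beside 19.9% and 17.2% of all. With Nutlin-3a 18 of 31 were higher and 1 was lower in siControl, and 20 of 29 higher and 0 lower in siRFX7, from the authors' deposited tables (DESeq2), the 0 also at an unadjusted p under 0.05. Of all genes 18.3% and 18.7% were higher and 19.6% and 20.3% lower in these comparisons. Its median siRFX7 effect was -0.13 and -0.084, nearer to 0 than that of the 49 genes, in the authors' deposited tables. SLFN5, of the Schlafen family, had levels of 18.4, 13.0, 50.3 and 41.6 NPM, like TRIM22 far higher with Nutlin-3a (1.43 ± 0.06 and 1.66 ± 0.07) and lower with siRFX7 (-0.47 ± 0.08 and -0.24 ± 0.05) in the authors' deposited tables. TRIM5, which blocks retroviral capsids, was lower with siRFX7, at -0.47 ± 0.04 and -0.46 ± 0.05, and rose with Nutlin-3a by 0.76 ± 0.04 and 0.77 ± 0.05 in the authors' deposited tables. TRIM14, an adaptor of mitochondrial antiviral signalling, was higher with siRFX7, by 0.45 ± 0.05 and 0.49 ± 0.05, per the authors' deposited tables.

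A siRNA can also lower transcripts that match its seed. The sequence of siRFX7 is not in the labels, and the heptamer GTATCTA was picked earlier from the fold changes in these same tables, so it serves here only as a description. Of 46 genes with an annotated 3′ UTR in GENCODE 29, IFI44, CMPK2 and EIF2AK2 held it (6.52%), against 7.8% of 13710 coding genes. The sites are shown with the heptamer in capitals, 5′ to 3′ on the transcript's strand.
IFI44: accaaagagaaGTATCTAagaccaaaggg
CMPK2: tttgcaatgtgGTATCTAgctgtattatt
EIF2AK2: aaatacattttGTATCTAttgtaacaacc
Without these 3 genes, 22 of 39 were lower by the mean siRFX7 effect and 1 was higher, with a median of -0.15. Neither OASL nor any IFIT gene nor ISG15 held it. In the pathway list 7 of 26 genes held it (26.9%), among them JAK1, JAK2 and STAT3, which were lower under DMSO, and PIAS1, which was higher, and in the list of further interferon-stimulated genes 6 of 28 (21.4%), among them TRIM5. The part of the heptamer in any result was not tested. The recount without the 3 genes cannot test it, since the heptamer was picked from these same fold changes. That recount also leaves out only genes that hold the heptamer themselves.

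Of the 46 genes in a table, 33 were called in at least 1 of the 4, against 57.4% of the 23396 genes in any table, and 13 in none: OAS2, MX1, IFI27, IFI35, IFI44L, DHX58, IRF9, USP18, RSAD2, BST2, XAF1, DTX3L and GBP2. IFI35, RSAD2, BST2 and XAF1 were in some of the tables only, since the tables leave out genes of low count. The limit was not the same in each. The lowest base mean with a row ran from 2.46 for Nutlin-3a over DMSO in siControl to 6.82 for siRFX7 over siControl under DMSO. A gene that passed such a limit only through 1 group would have to differ. The counts of calls above therefore cover the genes with a row and not all 49. Most of the 13 had low counts. MX1, the dynamin-like restriction factor of influenza virus and a common marker of interferon response, had levels between 1.47 and 1.77 NPM and siRFX7 effects of 0.10 ± 0.21 and 0.18 ± 0.21, per the authors' deposited tables. The median SE of the genes under a base mean of 100 was 0.298 under DMSO, against 0.0725 from 100 up, in the authors' deposited table for siRFX7. At that median SE a change of the size seen in STAT2 would be missed. It does not hold for every scarcer gene, as OAS1 was called at -0.53 with a base mean of 65.8. Besides the overlaps given above, exons of ISG15, EIF2AK2, OAS1, SP110, MX1 and XAF1 overlap a gene on the other strand, those of GBP2 one on the same strand and those of TRIM25 genes on both. RSAD2 (viperin), BST2 (tetherin) and IFI35 had base means of at most 5.64.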

How the data were processed

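Poly(A) RNA of 16 U2OS libraries, 4 a group, was sequenced after preparation from 500 ng of total RNA with a stranded kit, per the labels' protocols. The submitters' processing notes name Trimmomatic 0.39, cutadapt 2.10, featureCounts 1.6.5, DESeq2 1.20.0 and the build hg38; the aligner is not given in the sources used here. The files are the authors' 4 deposited comparison tables. Their base means (a signal, mean normalised counts), log2 fold changes with SE, Wald statistics (a score) and adjusted p-values were used as deposited by the authors; genes of low count have no row. The sign of the fold changes was read from the data: over 19344 genes the 4 comparisons closed with an SD of 0.00291, against 0.514 with a pair inverted, and RFX7, CDKN1A and MDM2 gave the sign.

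Differences and means of 2 tables that share no library used combined SEs, a two-sided normal p and Benjamini-Hochberg adjustment over all genes in both (Python 3.11.15, scipy 1.17.1), tested on simulated data. Calls used an adjusted p under 0.05. The list of genes, their roles, the other lists, tests and alternatives were chosen with earlier results of these data known. Every gene called in at least 1 table was named with values. Of the other lists, called genes whose base mean was 100 or more and at most the 4 highest or lowest changes were named. Promoters came from RefSeq (GRCh38.p14), positions, exon lengths and 3′ UTRs from GENCODE 29 on GRCh38, where 99.9% of the tables' genes had their identifier.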

Additional observations from a re-analysis of the deposited data

Results flagged for a closer look

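In 2 of the 44 genes the test of the difference itself found unlike Nutlin-3a responses with siRFX7 and with siControl, 1 higher and 1 lower, against 0.173% and 0.764% of all genes. For TRIM22 the response in siRFX7 minus that in siControl was 0.3752 on the log2 scale, with derived levels rising from 19.1 to 94.9 normalised counts per 1000000 in siControl and from 11.7 to 75.2 in siRFX7. For IRF1 it was -0.3652, with derived levels of 21.8 and 23.5 normalised counts per 1000000 in siControl and 19.2 and 16.1 in siRFX7. The call of IRF1 was lost with the statistic divided by its robust SD (adjusted p 0.0771).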

How the results depend on the processing

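Requiring a change of at least 0.5 on the log2 scale as well left 9 called genes with siRFX7 under DMSO, 9 under Nutlin-3a, 12 with Nutlin-3a in siControl, 16 in siRFX7, 10 for the mean siRFX7 effect, 17 for the mean Nutlin-3a response and 0 for the difference of the responses, since most called changes are smaller than that. The difference of the responses left 1 gene, TRIM22, at an adjusted p under 0.01 and 1 with its statistic divided by its robust SD, where IRF1 had an adjusted p of 0.0771. All other counts stayed within 1.5 times of the reported ones, and no call changed direction. Of 157 single calls, 135 were kept at an adjusted p under 0.01, 154 with log2 changes centred on the median of all genes (shifts of -0.0276 to 0.0134; those of ADAR, EIF2AK2 and IFI27 were lost) and 157 with only genes in all 4 tables. Of 134 that could be tested with a base mean of at least 100, 134 were kept. Levels from each table alone moved the median level of a group from 11.89 to between 11.69 and 12.09 normalised counts per 1000000 in siControl with DMSO. In siRFX7 with Nutlin-3a the median moved from 11.59 to between 11.38 and 11.8. It moved from 9.396 to between 9.364 and 9.427 in siRFX7 with DMSO. For siControl with Nutlin-3a it moved from 15.43 to between 15.38 and 15.49. No paired analysis was possible because the tables hold no value of a single library; for the same reason a replicate block and leaving out each replicate were not run. Depth limits the genes with a base mean under 100, whose median SE lay between 0.278 and 0.381 in the 4 tables.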
